A study of Mus musculus with 2 samples.

Results

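The dual specificity MAP kinase phosphatases described here are 7 genes, Dusp1, Dusp2, Dusp4, Dusp5, Dusp6, Dusp10 and Dusp16, of 18193 genes with a singly named probe set on the array. They were taken as a named set, and every probe set that the platform annotation gives to exactly 1 gene, that gene being one of the 7, was kept, which gave 9 probe sets. The set was proposed with earlier results of these arrays known, so the genes count as chosen by their MAS5 signals on the DNR and WT arrays, and those signals are given as a description. RNA came from splenic CD4+Foxp3+ regulatory T cells (Tregs) of DNR mice, whose genotype label is Dominant negative TGF-beta receptor II, aged 10 weeks, and from the same sorted population of wild-type (WT) mice, also aged 10 weeks. Both are on the C57BL/6 background and naive. There was 1 array per genotype. The promoter that drives the receptor construct, the number of mice per sample and the way Foxp3 was seen in the sort are not stated by the labels. The treatment text of the WT sample repeats that of the DNR sample and names DNR mice as its source, whereas its genotype, title and source labels say WT; the genotype label was used.

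MAP kinases (ERK, JNK and p38) are switched on by phosphorylation of a threonine and a tyrosine in their activation loop, and the dual specificity phosphatases remove both phosphates and so end the signal. Many of these phosphatase genes are themselves induced by the MAP kinases they switch off, which makes them feedback inhibitors with short-lived transcripts. In T cells the antigen receptor drives these cascades through Ras, and the phosphatases shape proliferation and cytokine production. The classical members fall into a nuclear, inducible class (Dusp1, Dusp2, Dusp4, Dusp5), a cytoplasmic class that acts on ERK (Dusp6 here) and a class that acts on JNK and p38 (Dusp10, Dusp16).

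Most of the MAP kinase phosphatases had a lower signal in DNR Tregs. Of the 7 genes 6 were lower on the DNR array and 1, Dusp1, was higher; of all 11927 measured genes 48.6% were lower by any amount and 51.4% higher. At least 2-fold lower were 2 of the 7, Dusp4 and Dusp2, where 2.93% of all measured genes were, and 0 were at least 2-fold higher, where 4.0% of all measured genes were. A gene stands here by its brightest probe set and counts as measured where that probe set exceeds a floor of 110.9, the higher of the medians of the arrays, on at least 1 array. All 7 genes were above the floor on both arrays. Of the 9281 genes for which this held, 53.5% were lower on the DNR array by any amount. The log2 ratios of the 7, DNR over WT, lay between -1.17 and 0.18 with a median of -0.53. The median was 0.01 over all measured genes and -0.03 over those above the floor on both arrays. With 1 array per genotype no test between genotypes can be made, and none of these differences can be set against the spread between mice. In RNA of a whole sorted population, fewer cells that express a gene and less RNA per cell cannot be told apart.

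**Figure D1:**
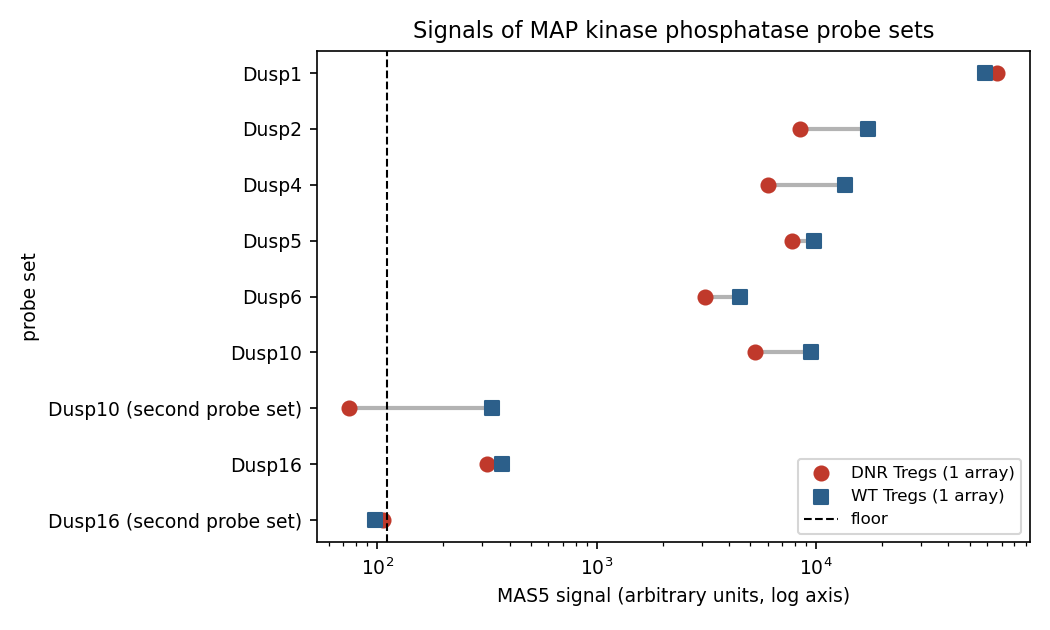
MAS5 signal (log axis, arbitrary units) of each of the 9 probe sets in DNR Tregs (red circles) and WT Tregs (blue squares), 1 array each, with the floor of 110.9 as a dashed line. The DNR point lies left of the WT point for Dusp2, Dusp4, Dusp5, Dusp6, both probe sets of Dusp10 and the brighter one of Dusp16, and right of it for Dusp1 and for the second probe set of Dusp16, which is below the floor on both arrays.

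The size of technical disagreement was gauged only from pairs of probe sets of the same gene. A gene entered where exactly 2 of its probe sets passed a signal limit with DNR and with WT RNA. Any dimmer probe sets of that gene were left out, so their disagreement is not counted. With the floor as the limit there were 2416 such genes, and a single probe set's log2 ratio had a robust SD of 0.39. The limit was then set at 1000, a range that holds 6 of the 7 phosphatase genes, and genes were selected anew. Over the resulting 782 genes the SD was 0.23. Variation between mice, sorts or hybridisations is not part of this spread.

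The start regions of 4 genes are shown, because Dusp2 and Dusp10 are among the 3 genes with the lowest log2 ratios, Dusp5 differed little, and Dusp1 was on the other side of 0. They run from 250 bases before to 50 bases after the annotated start, 5′ to 3′ on the gene's strand, from RefSeq on build GRCm38.p6: Dusp2 at chr2:127335909-127336208 (plus strand), Dusp10 at chr1:184034131-184034430 (plus strand), Dusp5 at chr19:53528895-53529194 (plus strand) and Dusp1 at chr17:26508423-26508722 (minus strand). Capitals mark matches, on either strand, to the core of a cAMP response element (TGACG), the E-box CACGTG, the CCAAT box (CCAAT) and the CArG box that serum response factor binds.
Dusp2: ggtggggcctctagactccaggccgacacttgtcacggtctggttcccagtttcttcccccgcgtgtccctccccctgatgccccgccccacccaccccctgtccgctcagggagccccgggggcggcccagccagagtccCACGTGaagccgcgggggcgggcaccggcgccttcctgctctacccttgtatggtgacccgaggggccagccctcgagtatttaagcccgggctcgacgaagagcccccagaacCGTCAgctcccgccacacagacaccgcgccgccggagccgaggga
Dusp10: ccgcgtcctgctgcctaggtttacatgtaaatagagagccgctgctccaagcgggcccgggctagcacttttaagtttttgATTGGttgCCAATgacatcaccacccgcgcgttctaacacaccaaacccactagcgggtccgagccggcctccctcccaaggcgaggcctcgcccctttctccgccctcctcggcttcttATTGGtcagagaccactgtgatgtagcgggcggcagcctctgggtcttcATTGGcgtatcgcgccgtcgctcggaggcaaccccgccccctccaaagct
Dusp5: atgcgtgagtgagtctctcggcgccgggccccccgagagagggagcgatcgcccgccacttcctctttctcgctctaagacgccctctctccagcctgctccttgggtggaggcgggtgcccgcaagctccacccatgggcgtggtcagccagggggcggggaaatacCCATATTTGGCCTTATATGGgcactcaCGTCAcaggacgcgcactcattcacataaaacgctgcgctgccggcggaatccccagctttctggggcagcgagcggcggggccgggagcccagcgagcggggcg
Dusp1: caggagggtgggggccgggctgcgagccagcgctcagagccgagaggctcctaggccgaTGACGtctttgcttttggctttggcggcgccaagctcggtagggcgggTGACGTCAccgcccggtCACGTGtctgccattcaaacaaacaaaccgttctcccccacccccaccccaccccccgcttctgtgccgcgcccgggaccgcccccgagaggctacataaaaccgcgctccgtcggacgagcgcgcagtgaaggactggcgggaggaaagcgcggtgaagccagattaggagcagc

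The start regions of 6 of the 7 genes were matched, so every count below leaves out Dusp4. The full cAMP response element TGACGTCA, which contains the core TGACG on both strands, was found in Dusp1 alone among the 6, 143 bases before the start, and 1.79% of all 32851 start regions hold it. The core occurred in 4 of the 6, against 20.8% of all. CArG boxes were found in Dusp5, as a pair of adjacent matches 82 and 72 bases before the start, and 1.63% of all start regions hold one. The E-box was in Dusp2 and Dusp1, 109 and 126 bases before the start, against 7.15% of all. The CCAAT box was in 3 of the 6, against 37.4% of all, and Dusp10 held 4 matches to it. The GC box GGGCGG was in 5 of the 6, against 35.7% of all. The AP-1 site TGANTCA was in 0 of the 6, against 7.81% of all, and TATAAA in 0 of the 6, against 13.6% of all. The palindromic SMAD element GTCTAGAC was in 0 of the 6 and in 0.213% of all, and its shorter core CAGAC was in 2 of the 6, Dusp2 and Dusp1, against 49.6% of all. A match says only that these letters are in the window.

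Among the 4 nuclear, inducible phosphatases 3 were lower in DNR Tregs, 2 of them by at least 2-fold, and 1 was higher. Dusp4 (MKP2), which dephosphorylates ERK and JNK, had a signal of 6033 in DNR Tregs and 13545 in WT Tregs. That was 2.25-fold lower, a log2 ratio of -1.17, and the DNR signal was 44.5% of the WT signal. Dusp2, known as PAC1 (phosphatase of activated cells), is found mainly in haematopoietic cells. It had a signal of 8403 in DNR Tregs and 17133 in WT Tregs, 2.04-fold lower with a log2 ratio of -1.03. Dusp2 therefore lay just past the 2-fold line. Each gene is represented by 1 probe set, neither of a kind that can bind several transcripts, so there is no second measurement of either on these arrays.

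Dusp5, a nuclear phosphatase that is selective for ERK and keeps it in the nucleus, differed less. Its signal was 7711 in DNR Tregs and 9811 in WT Tregs, 1.27-fold lower with a log2 ratio of -0.35. Dusp1 (MKP1), a stress-inducible phosphatase that acts chiefly on p38 and JNK, had 66836 in DNR Tregs and 58960 in WT Tregs, 1.13-fold higher with a log2 ratio of 0.18. The Dusp1 difference was smaller than the probe set SD of 0.23. Within this class of 4 the log2 ratios ran from -1.17 for Dusp4 to 0.18 for Dusp1.

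Dusp6 (MKP3), the cytoplasmic phosphatase of ERK whose transcript follows ERK activity in many cell types, had a signal of 3124 in DNR Tregs and 4503 in WT Tregs. It was 1.44-fold lower, with a log2 ratio of -0.53, and the DNR signal was 69.4% of the WT signal. Its single probe set thus pointed the same way as those of Dusp2 and Dusp4 but fell short of 2-fold.

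Of the phosphatases of JNK and p38, Dusp10 showed the larger difference. Dusp10 (MKP5), which limits T cell cytokine production, gave 5252 in DNR Tregs and 9497 in WT Tregs by its brighter probe set. This was 1.81-fold lower, with a log2 ratio of -0.85, so Dusp10 was the gene that fell just short of 2-fold. The second probe set of Dusp10 went the same way, with 74.5 in DNR Tregs, below the floor, and 333 in WT Tregs, at least 3.0-fold lower. With the median over both probe sets the log2 ratio was -1.22, which passes 2-fold. Dusp16 (MKP7), a phosphatase of JNK that shuttles between nucleus and cytoplasm, had 317 in DNR Tregs and 370 in WT Tregs, a log2 ratio of -0.23. The Dusp16 difference was smaller than the probe set SD of 0.39. Its second probe set was not above the floor on either array, at 106 in DNR Tregs and 97.9 in WT Tregs, so Dusp16 rests on a single probe set that can bind several transcripts.

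The 3 largest differences stand at the edge of what equally bright genes showed. The 9281 genes that exceeded the floor on each array were put into 10 equal bins by mean signal, and the brightest bin, of 928 genes, holds Dusp1, Dusp2, Dusp4, Dusp5 and Dusp10. In that bin 8 genes, 0.862%, were at least 2-fold lower, and the median size of a log2 ratio was 0.20. Counting from the lowest log2 ratio in that bin, Dusp4 was number 5, Dusp2 number 7 and Dusp10 number 15 of 928, while Dusp5 was number 121. Dusp6, in the bin just below, was number 52 of 928. Dusp16 lay in the third bin from the dim end, where 5.39% of genes were at least 2-fold lower, and was number 333 of 928. These ranks describe the contrast by which the genes were chosen and are not evidence beyond it.

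**Figure D2:**
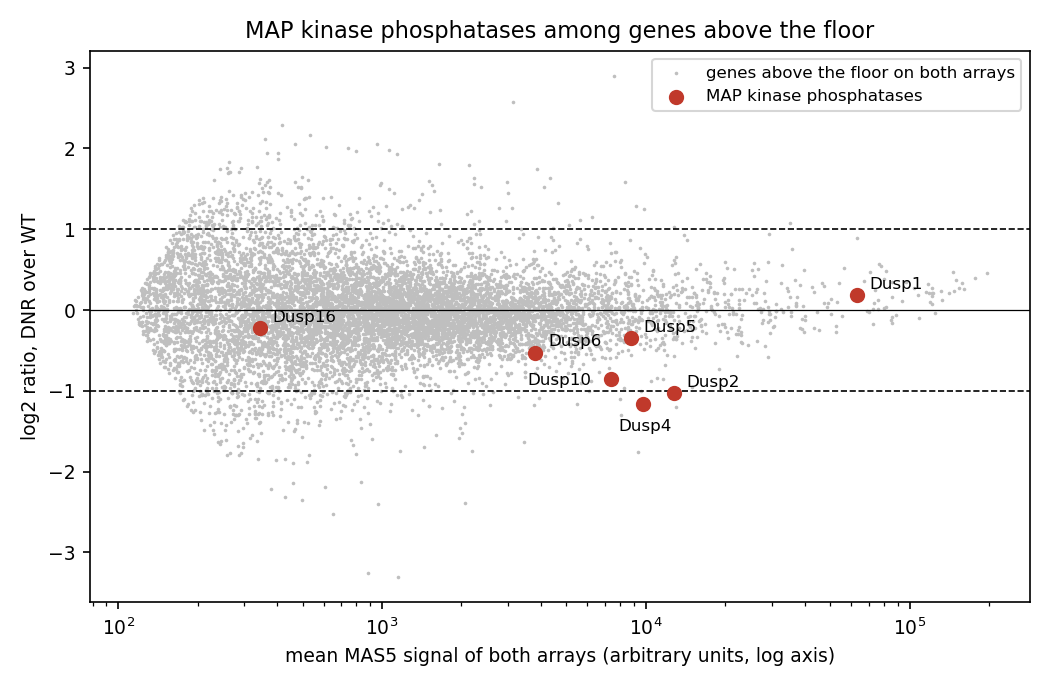
Log2 ratio, DNR over WT, against mean MAS5 signal (log axis, arbitrary units) for 9281 genes that exceeded the floor on each array (grey) and the 7 phosphatases (red), with dashed lines at 2-fold. Dusp4 and Dusp2 lie below the lower dashed line and Dusp10 just above it, at signals where the grey cloud is narrow, and Dusp1 lies above 0.

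The 3 remaining classical phosphatases of MAP kinases, named after their values were seen, had dim signals and were not lower. Dusp7, a cytoplasmic ERK phosphatase, had 348 in DNR Tregs and 186 in WT Tregs, 1.87-fold higher, but a second probe set had 130 in DNR and 127 in WT Tregs. Another, below the floor on both arrays, had 34.0 in DNR and 72.9 in WT Tregs. Every Dusp7 probe set can bind several transcripts, as can the brightest one of Dusp9. Dusp8, a phosphatase of JNK and p38, had 326 in DNR and 240 in WT Tregs, a log2 ratio of 0.44. Dusp9, a relative of Dusp6, was above the floor on the DNR array alone, with 139 in DNR and 34.4 in WT Tregs, which gives a bound of 1.25-fold higher. Their signals were all within a few multiples of the floor, where probe sets of a gene disagreed more.

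Of 16 atypical dual specificity phosphatases, a class that lacks the MAP kinase docking domain of the classical enzymes, 11 were measured, 4 of them higher and 7 lower, and 0 by 2-fold in either direction. The median log2 ratio was -0.31. Dusp11, which acts on RNA ends, was among the lower ones, with 3666 in DNR and 4538 in WT Tregs. Its second probe set was lower as well, with 2294 in DNR and 3180 in WT Tregs. Dusp14, which acts on TAB1 and restrains T cell receptor signalling, was higher, with 1248 in DNR and 849 in WT Tregs, a log2 ratio of 0.55. Dusp11 and Dusp14 were chosen after their values were seen. Phosphatases of other families that act on MAP kinases were measured in 11 of 12 cases, with 5 higher, 6 lower and 0 past 2-fold. Their median of -0.00476 was at most 0.05 from 0 under every alternative, on either side. Ppp2ca, the catalytic subunit of phosphatase 2A, had 10888 in DNR and 10868 in WT Tregs, and Ptpn2, a tyrosine phosphatase, 8126 in DNR and 10899 in WT Tregs. A second probe set of Ppp2ca had 5766 in DNR and 4537 in WT Tregs, and a dimmer one 749 in DNR and 783 in WT Tregs. A second probe set of Ptpn2 had 5794 in DNR and 6232 in WT Tregs, and its dimmer ones lay on either side of 0. Both bright probe sets of Ptpn2 can bind several transcripts.

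The Ras to ERK cascade, the p38 and JNK cascades and the kinases that MAP kinases activate each held 1 gene past 2-fold. Of all measured genes 2.93% were at least 2-fold lower and 4.0% at least 2-fold higher. Of 16 genes of the Ras to ERK cascade 10 were measured, 3 higher and 7 lower, and 1 was at least 2-fold lower; 5 had no singly named probe set in the annotation used here. The median log2 ratio was -0.11, but 0.04 with the median over probe sets. The gene past 2-fold was Sos1, an exchange factor that activates Ras, with 342 in DNR and 724 in WT Tregs. Its only other probe set above the floor was higher in DNR Tregs, at 184 against 93.6 in WT Tregs, and the median over probe sets gave -0.18. In the p38 and JNK cascades 17 of 19 genes were measured, 5 higher and 12 lower, with a median of -0.25. There Mapk12, p38 gamma, was 2.25-fold lower, with 169 in DNR and 381 in WT Tregs, and -0.51 by the median over probe sets. Its second probe set went the other way, with 123 in DNR and 86.0 in WT Tregs, and both probe sets can bind several transcripts. Of 9 kinases that MAP kinases activate 7 were measured, 3 higher and 4 lower. Rps6ka5 (the kinase MSK1, which phosphorylates CREB) was 2.31-fold higher, with 629 in DNR and 273 in WT Tregs, while a second probe set had 228 in DNR and 246 in WT Tregs.

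Other feedback inhibitors of ERK signalling had signals on either side. Of 8 genes 6 were measured, 3 higher and 3 lower. Their median log2 ratio of 0.17 became -0.00839 once the floor was set at the 60th percentile. Spred1, an inhibitor of Raf activation, was 2.63-fold higher by its brightest probe set, with 356 in DNR and 135 in WT Tregs. Another of its probe sets went the other way, with 116 in DNR and 340 in WT Tregs, so these arrays give no settled direction for Spred1. Early genes that MAP kinases induce were lower in 12 of 18 measured cases and higher in 6, with a median of -0.26 and 1 gene at least 2-fold lower. That gene was Etv5, an ETS factor downstream of ERK, with 64.2 in DNR Tregs, below the floor, and 245 in WT Tregs. Etv5 was at least 2.21-fold lower, and at least 1.47-fold lower once the floor was set at the 60th percentile. Its other probe sets were below the floor on both arrays. Jun, a far brighter gene, fell just short of 2-fold, with 6394 in DNR and 12780 in WT Tregs, a log2 ratio of -0.999. Fos, the brightest of these early genes, was among the higher ones, with 54911 in DNR and 51176 in WT Tregs. Jun and Fos were named after their values were seen.

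**Figure D3:**
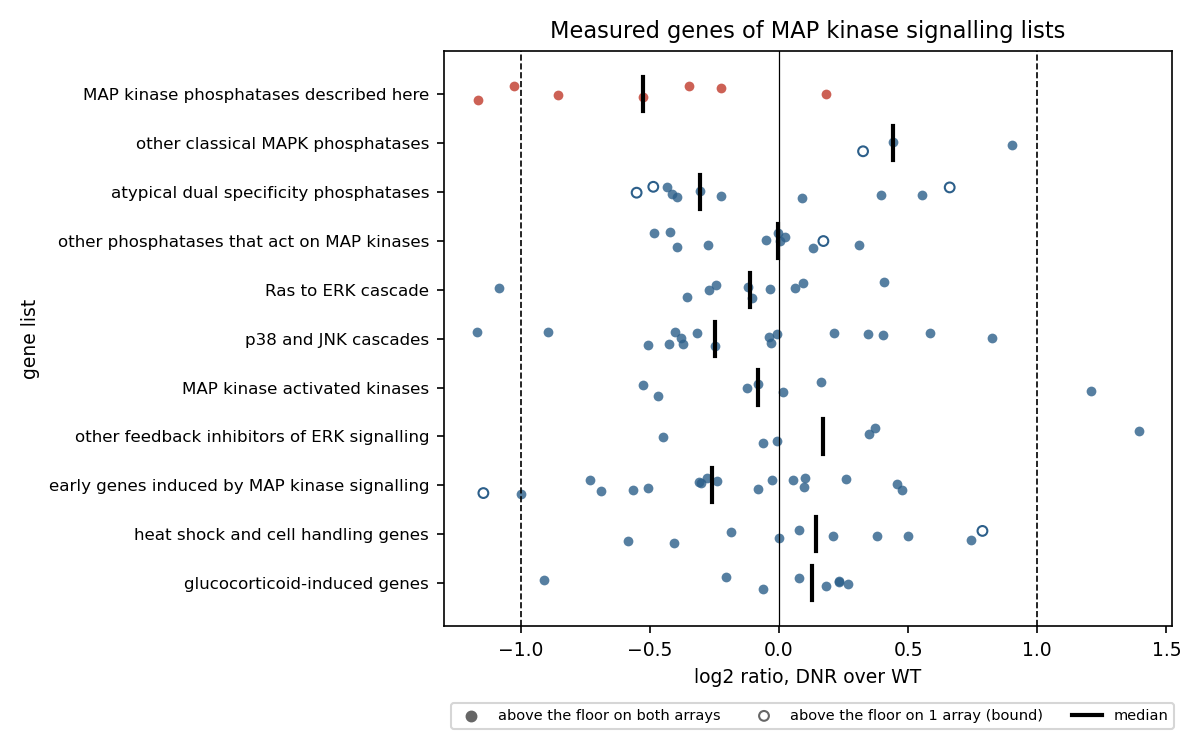
Log2 ratio, DNR over WT, of each measured gene of the 7 phosphatases (red) and of 10 lists of related genes (blue), with the median of each as a black bar, open circles for genes above the floor on 1 array alone, and dashed lines at 2-fold. The median of the 7 phosphatases, -0.53, lies left of the medians of the lists, which run between -0.31 and 0.44.

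Dusp1 is known to be induced by cell handling and by glucocorticoids, so genes of both kinds were examined beside it. Of 10 measured heat shock and handling genes 7 were higher and 3 lower in DNR Tregs, 0 of them by 2-fold, and their median of 0.14 was -0.30 once probe sets able to bind several transcripts were dropped and -0.11 with the median over probe sets. Hspa8, a constitutive chaperone, had 90409 in DNR and 69459 in WT Tregs, and Hsp90aa1, the inducible HSP90, 29668 in DNR and 20967 in WT Tregs. The brightest probe sets not of the kind that can bind several transcripts gave the opposite direction for both genes: 1043 in DNR and 1422 in WT Tregs for Hspa8, and 3395 in DNR and 4279 in WT Tregs for Hsp90aa1. Of 8 measured glucocorticoid-induced genes 5 were higher and 3 lower, 0 by 2-fold, with a median of 0.13. Nfkbia, the NF-kappaB inhibitor, had 141976 in DNR and 120748 in WT Tregs, and Sgk1, a serum and glucocorticoid regulated kinase, 7151 in DNR and 6080 in WT Tregs. The largest difference in this list was in Tsc22d3 (GILZ), a glucocorticoid target, with a signal 1.88-fold lower, 3932 in DNR and 7381 in WT Tregs, which is the direction of the 6 lower phosphatases. The part of handling and of glucocorticoids in the phosphatase values was not tested.

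Both samples carried the transcripts of Tregs: Foxp3 had 4550 in DNR and 3754 in WT Tregs, and all 8 genes of the Treg and CD4 T cell check were above the floor on both arrays. Markers of macrophages and monocytes were lower in DNR Tregs in 9 of 9 measured cases of 10, and their signals summed to 4169 in DNR and 5659 in WT Tregs. Csf1r, the brightest of them, had 1449 in DNR and 1799 in WT Tregs, and Cd14 was not above the floor on either array. At least 2-fold lower were 2 of the 9, C1qa, with 330 in DNR and 788 in WT Tregs, and C1qc, with 185 in DNR and 386 in WT Tregs. C1qb differed little, with 641 in DNR and 652 in WT Tregs, and the median log2 ratio of the 9 was -0.31. These markers thus went in the direction of the 6 lower phosphatases, several of which macrophages express too. The part of such cells in the phosphatase values was not tested. The 6 B cell markers, 3 of them measured, summed to 1479 in DNR and 1015 in WT Tregs, with 2 higher and 1 lower. Cd79b, the brightest, had 869 in DNR and 666 in WT Tregs. Cd22 was 2.74-fold higher, at 444 in DNR and 162 in WT Tregs. Ms4a1 was the lower one, with 76.4 in DNR Tregs, below the floor, and 126 in WT Tregs. The 8 neutrophil markers, 3 of them measured, summed to 935 in DNR and 521 in WT Tregs, with Elane at 173 in DNR and 238 in WT Tregs. The other 2 measured ones went the other way and were below the floor in WT Tregs: Ngp had 287 in DNR and 37.7 in WT Tregs, at least 2.59-fold higher, and S100a8 had 285 in DNR and 47.1 in WT Tregs, at least 2.57-fold higher. The 6 markers of CD8 T and NK cells, 5 of them measured, summed to 1185 in DNR and 1073 in WT Tregs, with Eomes at 360 in DNR and 416 in WT Tregs. Of these 5, 3 were higher and 2 lower, 0 by 2-fold, with a median of 0.41; Klrd1 had 284 in DNR and 183 in WT Tregs. The 5 dendritic cell markers, 2 of them measured, summed to 384 in DNR and 245 in WT Tregs, with Siglech at 157 in DNR and 82.9 in WT Tregs. Hspa1a, Hspe1, Tsc22d3, C1qa, C1qb, C1qc, Cd22, Ms4a1, Ngp, S100a8 and Klrd1 were named after their values were seen. The 3 erythroid markers were below the floor on both arrays, with Slc4a1 at 10.8 in DNR and 79.7 in WT Tregs. All 18 bacterial spike-in probe sets gave more signal with DNR RNA, at a median ratio of 1.95. The 3′ over 5′ signal ratio of Actb was 6.31 in DNR and 4.98 in WT Tregs and that of Gapdh 2.28 in DNR and 2.07 in WT Tregs. The part of these differences in the phosphatase values was not tested.

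Of 8 other settings for the floor, the choice of probe sets and the scaling, 5 could not alter Dusp2 or Dusp4, whose single probe sets lie far above every floor. Under the 3 other scalings Dusp4 lay between -1.18 and -1.15 and Dusp2 between -1.07 and -1.01. Dusp1 lay between 0.11 and 0.20, Dusp5 between -0.35 and -0.33, and Dusp6 between -0.53 and -0.50. Scaling by the median ratio or by the upper quartile multiplies 1 array by a constant and so shifts all these genes alike. Of the 3 scalings, only quantile normalization could move 1 gene against another.

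**Figure D4:**
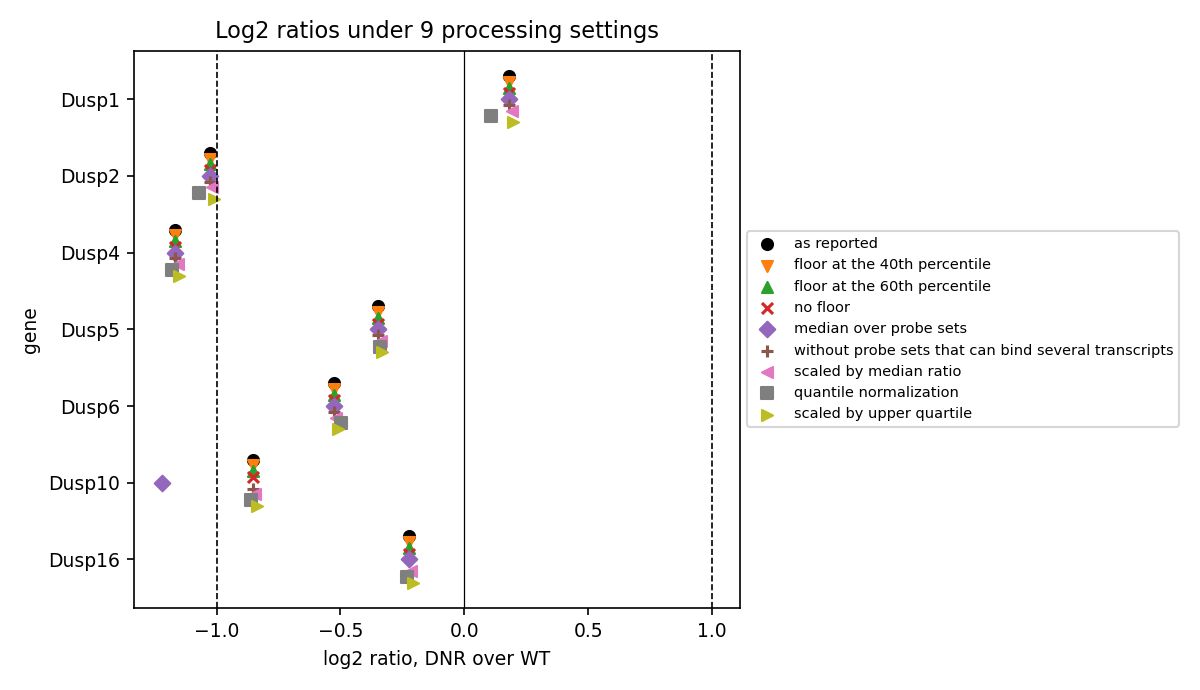
Log2 ratio, DNR over WT, of each phosphatase as reported (black) and under 8 other settings (coloured markers, named in the legend), with dashed lines at 2-fold. The markers of a gene lie close together, except that Dusp10 is at -1.22 by the median of its probe sets and at -0.85 as reported.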

How the data were processed

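Total RNA was biotin-labelled and hybridised to Affymetrix arrays, per the labels' protocols. The authors deposited 1 linear signal intensity per probe set and array, made with MAS5 per the submitters' processing notes. A mean trimmed by 2% at each end was 500.003 for each array, so they share a common scale, which multiplies background and signal alike. Of 45101 probe sets 64 controls were set aside, and 34945 of the other 45037 had exactly 1 gene name in the platform annotation. Signals under the floor of 110.9 (the higher of the medians, 110.9 for DNR and 91.0 for WT) were raised to it and log2 was then taken. A ratio with 1 side at the floor is a bound, written "at least". A change was described by size, at 2-fold, with no test, p-value or standard error, because there was 1 array per genotype; the number of arrays limits the precision. Detection calls and scanner values were not used here. Members and lists were chosen with earlier results of these data known. Named genes are the members, related phosphatases past 2-fold, up to 3 genes past 2-fold from each other list or else its 2 brightest, Foxp3 and the brightest marker of each other cell type; genes named otherwise are marked as such. With 2 arrays no likeness of patterns between genes was computed. Start regions came from RefSeq, build GRCm38.p6; no build is named for the arrays, and motifs were chosen after the sequences were seen. The calculation, in Python 3.11.15 with pandas 2.3.3 and numpy 2.4.6, was tested on simulated data. Those data held changes larger than any of the phosphatases showed, in genes far above the floor, so changes near 2-fold were not covered.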

Additional observations from a re-analysis of the deposited data

How the results depend on the processing

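Of the 55 values of the 7 phosphatases under 8 other settings, 33 were identical to the reported ones. Floors and probe set choices do not touch signals far above the floor or genes with 1 probe set. Of the other 22 values, 21 came from the 3 other scalings. Scaling by the median ratio or by the upper quartile shifts all 7 genes by the same amount. Among these 22, only quantile normalization and the median over probe sets could move 1 gene against another. Of all 55, 1 left its side of 2-fold, Dusp10, at -1.22 with the median over its probe sets, 1 of which is a bound. Dusp16 had no value once probe sets able to bind several transcripts were dropped. At a threshold of 3-fold 0 of the 7 were lower. The counts over all genes, 350 lower and 477 higher, were sensitive to both cut-offs: 550 and 1026 for a floor at the 40th percentile, 246 and 250 for one at the 60th, 2655 and 3617 with no floor, 1175 and 1526 at 1.5-fold, and 63 and 56 at 3-fold. The median of the 3 other classical phosphatases, 0.44, became 0.89 for a floor at the 40th percentile and 0.90 with no floor, since bounds grow as the floor drops. The median of the heat shock and handling genes, 0.14, was -0.30 once probe sets able to bind several transcripts were dropped; the cause was not tested. Of 87 values for other genes named by rule 78 stayed within the probe set SD of 0.39 and on their side of 2-fold. No paired analysis was possible because each genotype has 1 array, and for the same reason no replicate could be left out. Signals near the floor, as for Dusp7, Dusp8, Dusp9 and Dusp16, limit what can be said of these genes.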
